A study of Homo sapiens with 4 samples.

Results

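The genes described here are 9 apolipoproteins and lipoprotein assembly genes, taken by symbol from the count tables: APOA1, APOA2, APOB, APOC1, APOC3, APOE, APOH, APOM and MTTP. All 9 were listed in every library, among 16370 genes in all. RNA sequencing covered 4 human cell lines. The parental lines Hep3B and Huh7 are long-established hepatoma lines (hepatocellular carcinoma, HCC), and the stem-like cells cultured from them (hepatic cancer stem cells, HCSC) are called Hep3B-C and Huh7-C. Each line was 1 library, no agent or genotype separated the groups in the labels, and the way the stem-like cells were enriched is not given in the sources used here. Each group thus held 2 libraries from different parental lines, and no culture was repeated. Counts on genes were lowest in Hep3B (2896418) and ranged from 4333808 to 4641927 in the other lines, and 3 counts, taken as the floor of detection, stood at 0.646 to 1.04 CPM (counts scaled to the library total). All 6 hepatocyte markers were detected in every library, with a summed level that was 42969 CPM in Hep3B and 58672 CPM in its HCSC line, and 45019 CPM in Huh7 and 18762 CPM in its HCSC line. Albumin (ALB) itself was far lower in the Huh7 lines (106 CPM in Huh7 and 267 CPM in Huh7-C) than in the Hep3B lines (19541 CPM in Hep3B and 18469 CPM in Hep3B-C). In these bulk libraries fewer cells of a type and less RNA per cell cannot be told apart.

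Hepatocytes secrete lipid to the blood in lipoprotein particles. APOB is the large, non-exchangeable scaffold of very low density lipoprotein (VLDL) and low density lipoprotein, and MTTP, the microsomal triglyceride transfer protein, loads it with lipid in the endoplasmic reticulum. APOA1 and APOA2 are the main proteins of high density lipoprotein (HDL), and APOM travels mostly on HDL and carries sphingosine-1-phosphate. APOC1, APOC3 and APOE move between particles: APOC3 slows the clearance of triglyceride, and APOE is the ligand through which remnants are taken up. APOH, or beta-2-glycoprotein I, binds anionic phospholipids.

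The genes lay in several places of the genome (GRCh38). APOC3 (chromosome 11, 116829706 to 116833072, plus strand) and APOA1 (116835751 to 116837950, minus strand) are neighbours, next to APOA4 and APOA5. APOE (chromosome 19, 44905754 to 44909393) and APOC1 (44914247 to 44919349), both on the plus strand, share a cluster with APOC4 and APOC2. The others were APOA2 on chromosome 1 (161222292 to 161223631, minus strand), APOB on chromosome 2 (21001429 to 21044073, minus strand), MTTP on chromosome 4 (99563761 to 99623999, plus strand), APOM on chromosome 6 (31652416 to 31658210, plus strand) and APOH on chromosome 17 (66212033 to 66256525, minus strand). The gene lengths used for counting ran from 461 bases (APOC1) to 14121 bases (APOB).

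The 9 genes together held 2.1% of all counts in Hep3B and 2.47% in its HCSC line, and 0.9% in Huh7 and 0.884% in its HCSC line. APOB had the largest share of these counts in every library, from 41.6% of them in Hep3B-C, where APOA2 had 38.5%, to 84.7% in Huh7-C. It was among the 9 most counted genes of each library, at rank 3 (Hep3B), 6 (Hep3B-C), 9 (Huh7) and 4 (Huh7-C). Per length, however, APOA2 led. In counts scaled to library total and gene length (RPKM), APOA2 was the highest of all genes in Hep3B (9120) and in Hep3B-C (20045), at rank 17 in Huh7 (2704) and rank 75 in Huh7-C (1038). APOA2 made up 73.5% of the summed RPKM of the 9 genes in Hep3B and 77.1% in its HCSC line, but 42.8% in Huh7 and 41.7% in its HCSC line. The lowest levels per length were those of APOH in the Huh7 lines, at 19.3 RPKM in Huh7 and 13.6 RPKM in Huh7-C. The order of the 9 genes by RPKM in the other lines ended with APOM in Hep3B (42.2) and MTTP in Hep3B-C (42.2).

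**Figure D1:**
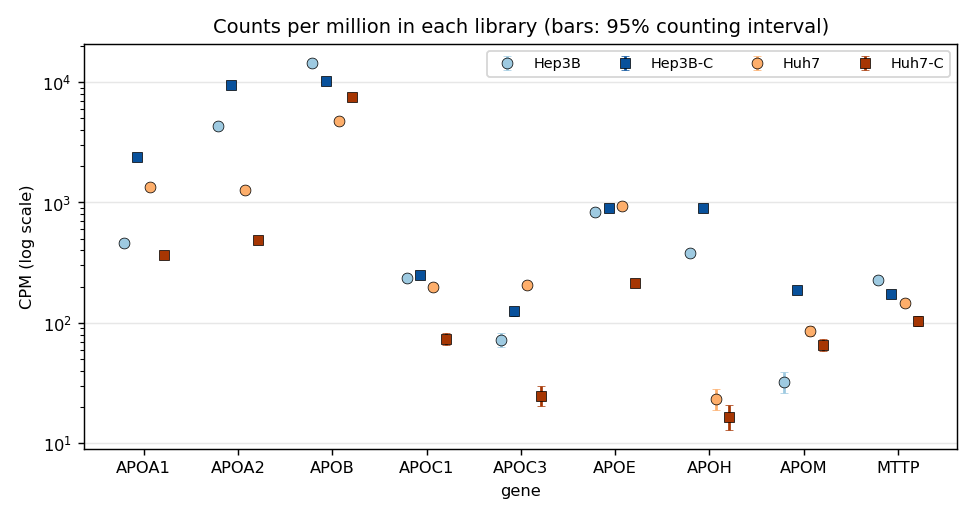
CPM of each gene (log axis) in the 4 libraries, with 95% counting intervals that are mostly narrower than the symbols. APOA1 and APOA2 sit higher in Hep3B-C than in Hep3B and lower in Huh7-C than in Huh7, and APOH is at 23.1 and 16.4 CPM in the Huh7 lines against 377 and 908 CPM in the Hep3B lines.

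**Figure D2:**
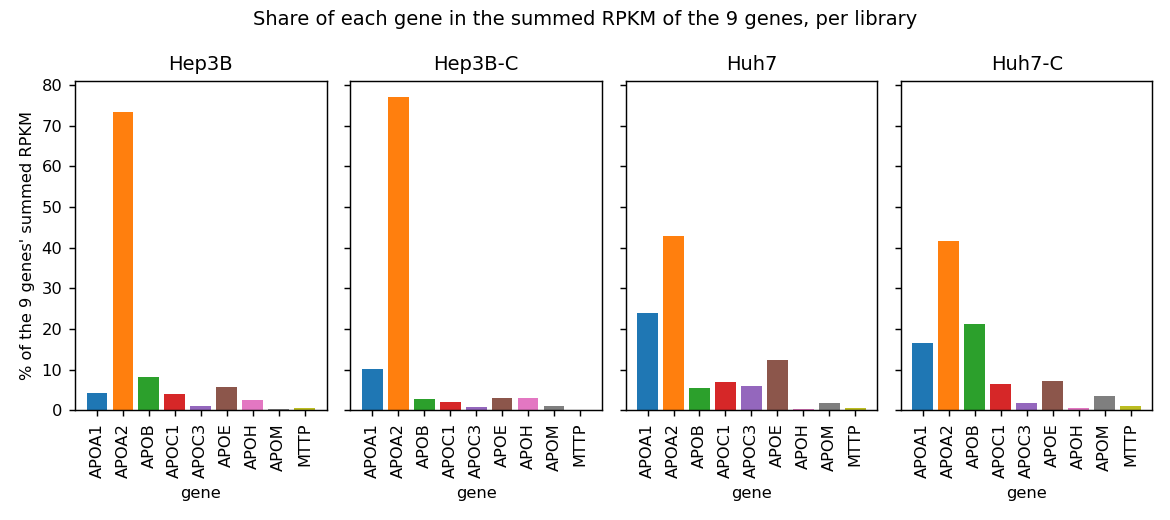
Share of each gene (bars, in percent) in the summed RPKM of the 9 genes, 1 panel per library. APOA2 is the tallest bar in all 4 panels, and APOB has its largest share, 21.3%, in Huh7-C.

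To see how the genes differed between stem-like and parental cells, each HCSC line was set against the line it came from. A gene was called up- or down-regulated at a false discovery rate (FDR) of at most 0.01 in the Audic-Claverie test of the 2 counts, if its log2 fold-change was also 1 or more in size. The standard error (SE) and the interval of a fold-change cover the sampling noise of reads alone, so each call compares 2 libraries and not the conditions.

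In the Hep3B pair 4 of the 9 genes were up-regulated in Hep3B-C, where 13.2% of all 15480 genes tested were, and 0 were down-regulated, where 30.4% of all genes were. The 4 were APOA1, APOA2, APOM and APOH. With TMM library sizes the shares over all genes were 19.7% and 20.2%, and APOC3 was up-regulated as well. With GC and length trends removed the 9 genes split into 3 up-regulated and 3 down-regulated, against 3.83% and 25.8% of all genes. APOA1 (log2 fold-change 0.21) and APOA2 (-0.26) were then no longer called. The median log2 fold-change was 0.79 over the 9 genes and -0.68 over all genes tested. Among the HDL proteins, APOA1 stood at 460 CPM in Hep3B and at 2367 CPM in Hep3B-C, a 5.14-fold rise (95% interval 4.86 to 5.45). APOA2 rose from 4314 to 9481 CPM, by 2.2-fold (2.15 to 2.24), which at these levels was the largest gain in CPM of the 9 genes. APOM had the largest relative change, from 93 counts (32.1 CPM) to 869 counts (187 CPM), or 5.83-fold (4.7 to 7.3), an interval that overlaps that of APOA1. APOH rose from 377 to 908 CPM, by 2.41-fold (2.25 to 2.58).

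APOC3, APOE and APOC1 did not pass the fold threshold in the Hep3B pair. APOC3 stood at 72.2 CPM in Hep3B and 125 CPM in Hep3B-C (log2 fold-change 0.79, SE 0.12). APOE was nearly level, at 831 and 902 CPM (log2 fold-change 0.12, SE 0.04), and so was APOC1 at 234 and 251 CPM (0.10, SE 0.07, Audic-Claverie FDR 0.217), which was the only member of the 9 whose difference in this pair did not exceed sampling noise. For the VLDL genes the log2 fold-changes were negative but small. APOB stood at 14425 CPM in Hep3B and 10263 CPM in Hep3B-C (-0.49, SE 0.01), and MTTP at 228 and 173 CPM (-0.40, SE 0.08).

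In the Huh7 pair 5 of the 9 genes were down-regulated in Huh7-C, where 4.15% of all 14807 genes tested were, and 0 were up-regulated, where 4.19% of all genes were. The median log2 fold-change was -1.38 over the 9 genes and 0.07 over all genes tested. The 5 were APOA1, APOA2, APOC1, APOC3 and APOE. APOC3 fell the most, from 931 counts (205 CPM) to 108 counts (24.9 CPM), and was 8.23-fold lower in Huh7-C (6.74 to 10.1). APOE fell from 929 to 213 CPM and was 4.37-fold lower (4.07 to 4.7). APOC1 fell from 200 to 73.4 CPM and was 2.72-fold lower (2.39 to 3.1). APOA1 fell from 1350 to 369 CPM (3.65-fold lower, 3.46 to 3.86), and APOA2 from 1279 to 491 CPM (2.6-fold lower, 2.48 to 2.74).

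APOB was the one gene of the 9 with a higher level in Huh7-C, at 7488 CPM against 4781 CPM in Huh7, 1.57-fold (1.54 to 1.59) and short of the fold threshold. MTTP stood at 147 CPM in Huh7 and 104 CPM in Huh7-C (log2 fold-change -0.50, SE 0.09). APOM stood at 85.7 and 65.3 CPM (-0.39, SE 0.11). APOH had only 105 and 71 counts, and its log2 fold-change of -0.50 (SE 0.22) did not pass in the Audic-Claverie test (FDR 0.0666). All of these calls assume no spread between cultures. When a spread between replicates of 0.4 (coefficient of variation) was assumed in its place, 0 of the 9 genes were called in either pair. At this setting 0 of the 13917 genes listed in both pairs were called up-regulated in Hep3B-C and down-regulated in Huh7-C. The share of all genes called within a pair is not given for it, so no conclusion about the 9 genes is drawn.

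**Figure D3:**
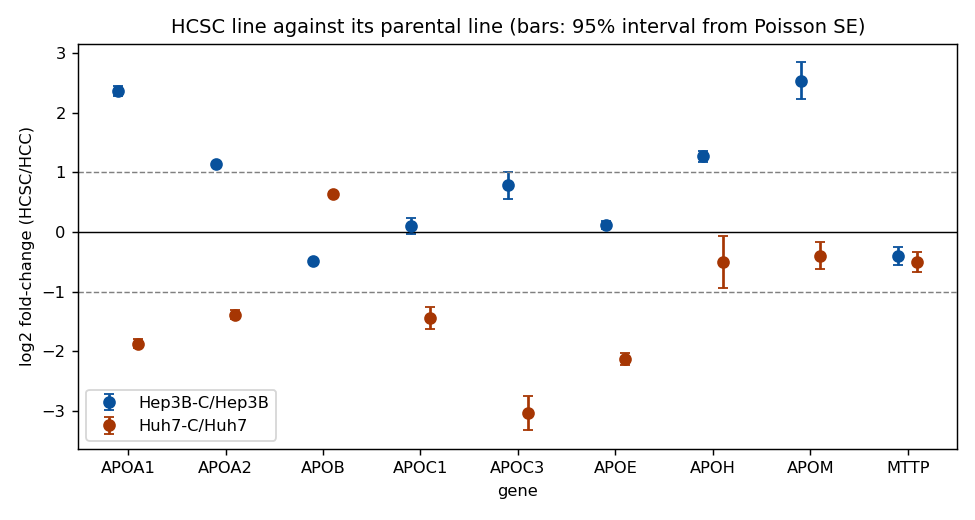
log2 fold-change (HCSC/HCC) of each gene in the Hep3B pair and in the Huh7 pair, with 95% intervals from the Poisson SE as bars and dashed lines at -1 and 1. APOA1 and APOA2 lie above 1 in the Hep3B pair and below -1 in the Huh7 pair, and MTTP lies close together in both (-0.40 and -0.50).

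The pairs were then set side by side. APOA1 and APOA2 were up-regulated in Hep3B-C and down-regulated in Huh7-C, that is 2 of the 9 genes against 0.532% of the 13917 genes listed in both pairs. The number depended on the scaling, in the same Audic-Claverie test. It was 3 of the 9 genes with TMM library sizes (with APOC3), against 0.798% of the genes listed in both pairs. It was 1 (APOA1) with the length trend removed, against 0.388%, and 0 with GC and length trends removed, against 0.18%. The log2 fold-change of APOA1 was 2.36 in the Hep3B pair and -1.87 in the Huh7 pair, a difference of 4.23 (SE 0.06). For APOC3 the difference was 3.82 (SE 0.19), for APOM 2.93 (SE 0.19), for APOA2 2.52 (SE 0.04), for APOE 2.24 (SE 0.06), for APOH 1.76 (SE 0.23) and for APOC1 1.54 (SE 0.12). APOB differed the other way, by -1.14 (SE 0.02). MTTP was the exception at this scaling, with a difference of 0.10 (95% interval -0.13 to 0.33). With TMM library sizes its log2 fold-change was 0.08 in the Hep3B pair and -0.54 in the Huh7 pair. With GC and length trends removed these were 0.53 and -0.63. Expressed as levels, the HDL protein APOA1 stood at 0.502 of APOB per length in Hep3B and 3.63 in Hep3B-C, and at 4.44 in Huh7 and 0.777 in Huh7-C. Hep3B-C and Huh7 thus had more APOA1 than APOB per length, and the other lines had less. No length or GC trend was removed from these ratios. With the length trend removed, the log2 fold-change in Hep3B-C was 1.31 for APOA1 and 1.05 for APOB. With GC and length trends removed it was 0.21 for APOA1 and 1.18 for APOB. Neighbouring genes did not keep a fixed ratio in every pair. APOC3 per APOA1 was 0.264 in Hep3B and 0.256 in Huh7, but 0.0887 in Hep3B-C and 0.114 in Huh7-C (ratios of RPKM). APOC1 per APOE was nearly level in the Hep3B pair, at 0.721 and 0.712, but 0.55 and 0.883 in the Huh7 pair. APOC2 per APOE was likewise 0.6462 and 0.6535 in the Hep3B pair, and 0.755 and 1.01 in the Huh7 pair.

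Hepatocyte markers did not move as one list. In Hep3B-C 2 of the 6 were up-regulated (TTR and SERPINA1) and 2 down-regulated (TF and FGB), against 13.2% and 30.4% of all genes. In Huh7-C 1 was up-regulated (ALB) and 3 were down-regulated (TF, SERPINA1 and AHSG), against 4.19% and 4.15% of all genes. Their part in the results was not tested. Of the enterocyte markers FABP2, APOA4 and SI, intestine being the other tissue that makes these lipoproteins, the summed level was at most 3.23 CPM in any library and SI was listed in none. Of the other cell types, biliary or progenitor markers summed to 280 and 94.6 CPM in the Hep3B pair (KRT19 and SOX9 were down-regulated) and to 58.8 and 91.1 CPM in the Huh7 pair. Fibroblast markers summed to at most 3.97 CPM and endothelial markers to at most 21.5 CPM, the latter in Huh7-C with PECAM1 up-regulated. The leukocyte list was CD68 alone, at 99.8 to 270 CPM and up-regulated in Hep3B-C, with PTPRC listed in none.

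Fold-changes also moved with gene length and base composition. Across genes with at least 20 counts, the log2 fold-change of the Hep3B pair had a Spearman coefficient of -0.433 with gene length and 0.631 with GC content, and that of the Huh7 pair 0.315 and -0.059. These are correlations across genes, which share their libraries. Several of the 9 genes lie at the ends of the length range: 35 of 11433 genes of the Hep3B pair were as short as APOA2 (473 bases) or shorter, and 58 were as long as APOB or longer. With the length trend removed, the log2 fold-change in Hep3B-C was 1.31 for APOA1, 1.46 for APOM, -0.03 for APOA2 and 0.33 for APOH. With GC and length trends removed it was 0.21 for APOA1, 1.26 for APOM, -0.26 for APOA2 and 1.25 for APOH. APOM was thus the one gene called in Hep3B-C under both corrections and in the uncorrected data. APOB turned from -0.49 to 1.05 and 1.18, and was then called up-regulated. With both trends removed Hep3B-C had 3 of the 9 genes up-regulated (APOB, APOH and APOM) and 3 down-regulated (APOC1, APOC3 and APOE), against 3.83% and 25.8% of all genes. In Huh7-C the values moved less. APOA1, APOC1, APOC3 and APOE were still called with both trends removed (-1.67 for APOA1, -1.03 for APOC1, -2.65 for APOC3 and -2.01 for APOE), APOA2 stood at -0.95 and APOB at -0.05.

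**Figure D4:**
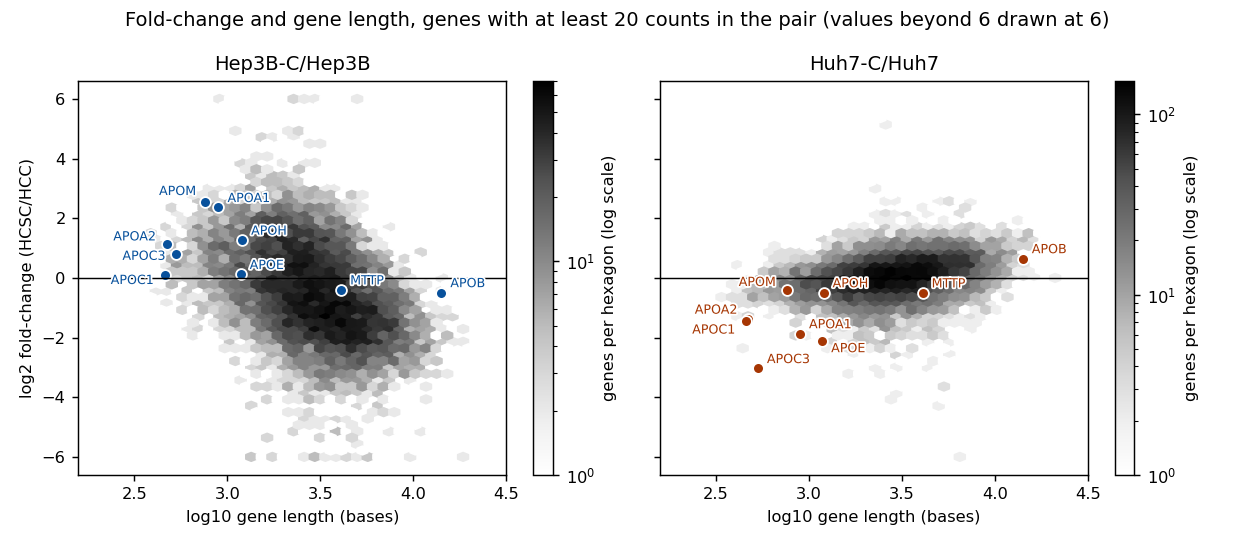
log2 fold-change (HCSC/HCC) against gene length (log10 bases) for genes with at least 20 counts in the pair (grey hexagons, darker with more genes) and for the 9 genes (coloured points). In the Hep3B pair the cloud falls with length (Spearman coefficient -0.433) and the short apolipoproteins lie at its upper left. In the Huh7 pair it rises slightly (0.315).

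**Figure D5:**
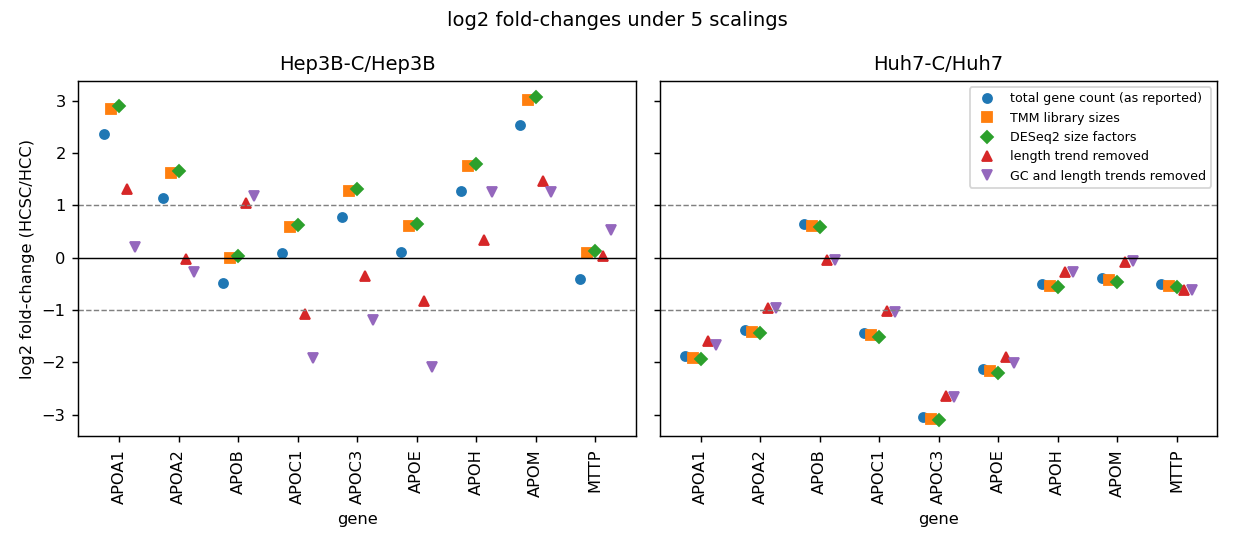
log2 fold-change (HCSC/HCC) of each gene under 5 scalings, 1 panel per pair, with dashed lines at -1 and 1. The Huh7 values lie closer together than the Hep3B values. Still, in the Huh7 pair APOB runs from 0.65 with the total gene count to -0.05 with GC and length trends removed. There APOA2 runs from -1.45 with DESeq2 size factors to -0.95 with GC and length trends removed. In the Hep3B pair APOE spans 0.65 with DESeq2 size factors to -2.09 with GC and length trends removed.

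HCSC and HCC were next compared over both parental lines with edgeR (quasi-likelihood test, blocked on the parental line). The fit had 1 residual degree of freedom. At an FDR of 0.05, 0 of the 9 genes were called, against 0.077% of all genes (9 of 11691). The smallest adjusted p of a member was 0.999, 0 members had an unadjusted p under 0.05, and DESeq2 also called 0. The log2 fold-changes ran from -0.95 (APOC3) to 1.24 (APOM).

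The same fit compared the Huh7 pair with the Hep3B pair. It called 2 of the 9 genes, against 8.48% of all genes, and both were lower in the Huh7 lines. APOH had a log2 difference of -4.92 (edgeR adjusted p = 8.94e-05), from 377 and 908 CPM in the Hep3B lines to 23.1 and 16.4 CPM in the Huh7 lines. APOA2 had a log2 difference of -3.03 (edgeR adjusted p = 0.0243), from 4314 and 9481 CPM to 1279 and 491 CPM. For both genes the 2 Hep3B libraries lay above the 2 Huh7 libraries, as they also did for APOB, APOC1 and MTTP, which did not pass. The other 7 did not pass, and their log2 differences ran from -1.04 (APOB) to -0.08 (APOM). With a library left out, 1 parental line has 1 library only, so the calls could not be checked that way. APOH alone of the 9 genes passed without the group term, where 797 of 11691 genes did. It was also the only one to pass without the filter on low counts, where 1017 of 16370 genes did.

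The start regions of these 2 genes are shown because edgeR called them between the parental lines. The windows (RefSeq, GRCh38.p14) run 5′ to 3′ on the gene's strand from 250 bases before the start to 50 after it, and capitals mark matches to a motif on either strand. The APOA2 window is chr1:161223579-161223878 (minus strand) and the APOH window is chr17:66229366-66229665 (minus strand). The APOH window lies within the gene span given above and not at its upper end, so the RefSeq start used is not the outermost one.
APOA2: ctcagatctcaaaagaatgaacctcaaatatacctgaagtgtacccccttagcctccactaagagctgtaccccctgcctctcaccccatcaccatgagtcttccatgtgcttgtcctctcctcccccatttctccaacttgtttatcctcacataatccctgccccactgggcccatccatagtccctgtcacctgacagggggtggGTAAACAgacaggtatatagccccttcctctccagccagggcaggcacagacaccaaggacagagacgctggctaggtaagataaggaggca
APOH: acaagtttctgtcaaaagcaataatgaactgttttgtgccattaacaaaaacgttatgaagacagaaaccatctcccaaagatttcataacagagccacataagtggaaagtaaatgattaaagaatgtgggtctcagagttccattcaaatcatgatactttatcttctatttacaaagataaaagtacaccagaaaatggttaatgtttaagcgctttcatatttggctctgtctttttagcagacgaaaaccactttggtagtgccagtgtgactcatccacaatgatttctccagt
The letters TGTTTAC, known from forkhead (FOXA) sites, matched the APOA2 window once, 42 bases before the start and on the strand opposite to the one printed, so that the capitals show the reverse complement. It had no match in the APOH window. Of 35116 windows of this length, 3.42% held TGTTTAC on either strand. The letters TATAAA and CAAAGTCCA, held by 11.5% and 0.384% of windows, were also searched and matched neither sequence. The motifs were chosen after the windows were viewed. RefSeq windows matched 6 of the 9 genes. A match says only that the letters are there. The forkhead factor FOXA2 stood at 81.1 CPM in Hep3B, 107 CPM in Hep3B-C, 60.8 CPM in Huh7 and 49.4 CPM in Huh7-C. HNF4A, a further transcription factor of the lists below, stood at 202, 293, 380 and 267 CPM in the same order. Whether either bears on APOA2 was not tested.

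The other genes of the pathway were followed by list, to be read against the 13.2% of all genes up-regulated and 30.4% down-regulated in Hep3B-C, and the 4.19% and 4.15% in Huh7-C. Of 12 other apolipoproteins, 12 were listed in the Hep3B pair with 0 called, and 10 in the Huh7 pair with 1 up-regulated (CLU) and 2 down-regulated (APOC2 and APOL6). Only 7 of them in the Hep3B pair and 6 in the Huh7 pair had more than 3 counts summed over the pair. The rest had too few counts to be called. APOC2, the activator of lipoprotein lipase, stood at 328 CPM in Hep3B and 360 CPM in Hep3B-C, and fell from 429 CPM in Huh7 to 132 CPM in Huh7-C (log2 fold-change -1.70). CLU, or clusterin, rose from 178 to 407 CPM in Huh7-C (1.19), and stood at 1666 and 2466 CPM in the Hep3B pair (0.57). APOL2 and APOL6 were low, at no more than 25.8 CPM in any library. APOA4, APOA5 and APOC4, the chromosome 11 and 19 neighbours, reached at most 21 counts in a library.

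Of 13 genes of particle assembly and secretion, all listed in both pairs, Hep3B-C had 5 up-regulated and 3 down-regulated (median log2 fold-change 0.50), and Huh7-C 0 and 2 (median -0.09). CIDEB, a lipid droplet protein that takes part in VLDL lipidation, rose from 63.9 to 255 CPM in Hep3B-C. It fell from 121 to 28.4 CPM in Huh7-C. With GC and length trends removed the rise in Hep3B-C was smaller (log2 fold-change 0.59) and the call was lost. SURF4, a cargo receptor for lipoproteins leaving the endoplasmic reticulum, rose from 264 to 628 CPM in Hep3B-C and stood at 962 and 702 CPM in the Huh7 pair. SORT1, or sortilin, fell from 228 to 79.3 CPM in Hep3B-C and stood at 240 and 225 CPM in the Huh7 pair. P4HB, the subunit that MTTP needs as its partner, passed in neither pair, at 1844 and 2599 CPM in the Hep3B pair and 1475 and 1110 CPM in the Huh7 pair.

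Of 9 genes of remodelling in plasma, 5 were listed in the Hep3B pair (1 up-regulated, 2 down-regulated) and 3 in the Huh7 pair (0 and 2). LIPC, the hepatic lipase, fell in both HCSC lines, from 106 to 19 CPM in Hep3B-C and from 80.7 to 37.8 CPM in Huh7-C. ANGPTL4, an inhibitor of lipoprotein lipase, also fell in both, from 13 counts to 1 in Hep3B-C and from 87.3 to 40.6 CPM in Huh7-C. PLTP, the phospholipid transfer protein, rose from 26 counts to 87 in Hep3B-C.

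Of 12 receptors and efflux genes, 10 were listed in the Hep3B pair (2 up-regulated, 2 down-regulated, median log2 fold-change 0.47) and 9 in the Huh7 pair (0 and 0, median -0.18). LRP1, a remnant receptor, fell from 474 to 233 CPM in Hep3B-C, just past the fold threshold (log2 fold-change -1.03). SCARB1, the HDL receptor, passed in neither pair, at 199 and 221 CPM in the Hep3B pair and 420 and 283 CPM in the Huh7 pair, nor did SDC1 (log2 fold-changes 0.78 and -0.12).

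Of 16 transcription factors and cofactors of the hepatic lipid programme, all listed in both pairs, Hep3B-C had 1 up-regulated and 6 down-regulated (median log2 fold-change 0.17), and Huh7-C 2 and 5 (median -0.17). The 6 are a share near that over all genes. CREB3L3, a hepatic factor of triglyceride metabolism, fell from 146 to 53.2 CPM in Hep3B-C and from 303 to 86.1 CPM in Huh7-C. NR1H4, the bile acid receptor, fell from 57 to 3.45 CPM in Hep3B-C and from 10.1 to 3.46 CPM in Huh7-C. PPARGC1A, a coactivator of fasting metabolism, fell from 109 counts to 11 in Hep3B-C and from 127 counts to 0 in Huh7-C. SREBF2, which drives cholesterol synthesis and uptake, rose from 215 to 455 CPM in Hep3B-C and from 127 to 255 CPM in Huh7-C. These lists were drawn up with results of these libraries known, and several of their calls depended on the scaling. In Hep3B-C the signs of PLTP (-0.59 with GC and length trends removed) and LRP1 (0.56 with the length trend removed) turned. SURF4 (0.65), SREBF2 (0.59) and SORT1 (-0.59) lost the call in Hep3B-C with GC and length trends removed, and CREB3L3 (-0.98) lost it with TMM library sizes. In Huh7-C the call was lost for SREBF2 with TMM library sizes (0.96), for LIPC with GC and length trends removed (-0.91) and for ANGPTL4 with the length trend removed (-0.97).

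The genes with profiles most like the members were sought among 10154 genes with at least 100 counts, by the Euclidean distance between log2(CPM + 1) profiles centred on their own mean over the 4 libraries. The nearest to APOC1 was CEBPA (distance 0.279), a hepatocyte transcription factor that fell from 102 to 35.5 CPM in Huh7-C. The nearest to MTTP was CUL9 (0.0473), to APOB DENND4B (0.0803), to APOM PSMB5 (0.17), to APOA1 C17orf28 (0.217), to APOE RASSF4 (0.308), to APOA2 LIMD2 (0.4) and to APOH HAAO (0.408). APOC3 had no gene closer than C9orf3, at 0.86. The 5 genes nearest to the mean profile of the 9 were TTC39A, FCGRT, TMEM98, ABAT and LDOC1. With 4 libraries such likeness is a description only.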

How the data were processed

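Total RNA of 4 cell lines was read on a Genome Analyzer II. The authors trimmed adapters, dropped reads of low quality, aligned the rest with NextGENe to NCBI Build 36.1, and deposited raw read counts per gene with gene lengths. The aligner version, annotation, strandedness and treatment of reads with several matches are not given in the sources used here, so reads of APOC1 and its near-identical pseudogene copy, or of APOA1 and its antisense RNA, may be mixed. CPM and RPKM were computed from the deposited counts, gene length and total gene count. Listed genes numbered 15480 in the Hep3B pair and 14807 in the Huh7 pair (13917 in both), and 20 rows of the Hep3B pair named no gene. GENCODE 29 (GRCh38) gave positions and GC content, which are annotation only, since the build differs.

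Pairs were tested with the Audic-Claverie test (two-sided, Benjamini-Hochberg over all genes of the pair), with 0.5 added to each count for fold-changes. Intervals cover counting error only (95%). Both parental lines were compared with edgeR 4.0.16 (quasi-likelihood test, TMM, filterByExpr, parental line as a block), with genes absent from a pair taken as 0. The cell line names pair the libraries, and the study compared them so. DESeq2 1.42.0 was an alternative, as were other library sizes, a minimum of 10 counts, 5 added to each count, removal of length or GC trends (lowess, fraction 0.3), an exact binomial test, an assumed biological coefficient of variation (BCV) of 0.4 and the FDR alone. Scripts were tested on simulated counts and ran in Python 3.11.15 and R 4.3.3.

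All 9 members are named. Up to 4 genes of each other list are named, those called alike in both pairs and those with the highest mean CPM. FOXA2, HNF4A and CEBPA were named after their values were seen. A few list genes are not reported here and are left out of the list counts. The members and lists were chosen with earlier results of these data known.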

Additional observations from a re-analysis of the deposited data

Results flagged for a closer look

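In 6 of the 9 genes the log2 fold-change had opposite signs in the Hep3B pair and the Huh7 pair, each beyond sampling noise. On the FDR alone 5 of them were higher in Hep3B-C and lower in Huh7-C (APOA1, APOA2, APOC3, APOE and APOM). That pattern held for 3.82% of the 13917 genes listed in both pairs. The share for the direction of APOB is not given. The difference (Hep3B pair minus Huh7 pair) was 4.23 for APOA1, 3.82 for APOC3, 2.93 for APOM, 2.52 for APOA2, 2.24 for APOE and -1.14 for APOB. With 1 library per line the difference was not tested. The sign in the Hep3B pair rests on the scaling for APOA2, APOB, APOC3 and APOE, whose values under other scalings follow. With GC and length trends removed APOE stood at -2.09 in the Hep3B pair and -2.01 in the Huh7 pair. APOB stood at 1.18 and -0.05. APOA1 (0.21 and -1.67) and APOM (1.26 and -0.07) kept their opposite signs.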

How the results depend on the processing

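Library sizes mattered for the Hep3B pair. TMM raised its log2 fold-changes by 0.48 and DESeq2 size factors by 0.53, which brought the median of all genes to -0.20 and -0.15, the share called up-regulated from 13.2% to 19.7% and 20.4%, and the share down-regulated from 30.4% to 20.2% and 19.5%. APOC3 was then also called (5 of the 9 genes up-regulated), MTTP turned to 0.084 with TMM and 0.13 with DESeq2, and APOB to 0.038 with DESeq2. With the length trend removed, values of the Hep3B pair turned to -0.028 for APOA2, 1.05 for APOB, -1.07 for APOC1, -0.36 for APOC3, -0.83 for APOE and 0.031 for MTTP. There 1 of the 9 genes (APOC1) was called down-regulated, against 27.7% of all genes. With GC and length trends removed the values were -0.26 for APOA2, 1.18 for APOB, -1.91 for APOC1, -1.19 for APOC3, -2.09 for APOE and 0.53 for MTTP. There 3 of the 9 genes were called down-regulated, against 25.8% of all genes. In the Huh7 pair APOB turned to -0.036 and -0.048. Among list genes of the Hep3B pair, APOC2 turned to -0.95, LRP1 to 0.56 and APOL6 to 0.80 with the length trend removed. With both trends removed APOC2 stood at -0.99, APOL2 at -0.50, APOL6 at 1.20, P4HB at -0.75, PLTP at -0.59, SCARB1 at -1.18 and SDC1 at -0.38, and APOL6 stood at 0.035 with DESeq2 size factors. The cause was not tested. At an assumed BCV of 0.4, 0 of the 9 genes were called up-regulated in Hep3B-C and 0 down-regulated in Huh7-C. On the FDR alone 2 genes (APOB and MTTP) passed as lower in Hep3B-C and 1 (APOB) as higher in Huh7-C. The shares of all genes called within a pair are not given for the assumed BCV or the FDR alone, so no conclusion is drawn from these counts. Of the alternative fold-changes of the 9 genes, 123 kept direction and call, 17 turned sign, 9 gained and 13 lost the call. The minimum count, the exact binomial test, the assumed BCV and the FDR alone leave the fold-change itself unchanged. Under these settings no sign could turn, so the tally does not measure how stable the directions are. All 17 turns of sign came with other library sizes or with trends removed. Between parental lines 1 gene (APOH) passed without the replicate block, where 797 of 11691 genes did. Without a filter on low counts 1 (APOH) passed, where 1017 of 16370 genes did. With 1 library left out, a parental line has 1 library only, so no count is given. For HCSC against HCC, 0 passed under every alternative run with no library left out, where 0 to 14 of all genes did. The fit without the parental line as a block is included. No library could be left out within a pair.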
